A study of Mus musculus with 31 samples.

Results

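Heat shock proteins are chaperones that fold newly made proteins and refold or hold damaged ones. The genes described here are 10 members of this family, chosen by symbol: Hspa1a and Hspa1b (inducible cytosolic HSP70), Hspa8 (constitutive HSP70), Hspb1 (a small heat shock protein), Hsph1 (HSP110, which exchanges the nucleotide of HSP70), Dnajb1 (an HSP40 that delivers clients to HSP70), Hsp90aa1 and Hsp90ab1 (the cytosolic HSP90 proteins), and Hspd1 and Hspe1 (the chaperonin HSP60 and its lid HSP10 in mitochondria). Each symbol had 1 row in each of the 3 count tables, among 55487, 56980 and 56941 genes. All 31 samples were of Panc02, a murine pancreatic adenocarcinoma line.

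In the conditioned media table, WT spheroids embedded in Matrigel received control medium with matched serum (Ctrl, n = 3), medium of unstimulated bone marrow-derived macrophages (M0-CM, n = 3) or medium of macrophages given IFNγ and then LPS (M1-CM, n = 3). In the culture table, WT and Cxcl5-/- cells were grown in 2D or as spheroids in 3D, with n = 3 in each of the 4 groups. The rescue table held 3D-cultured WT (n = 2), Cxcl5-/- (n = 2), Hif1aOE Cxcl5-/- (n = 3) and MycOE Cxcl5-/- cells (n = 3), so that both overexpressing lines and their direct control lacked Cxcl5. Cxcl5, a neutrophil-attracting chemokine, had been deleted with a CRISPR/Cas9 lentiviral vector and puromycin selection, and a stabilized Hif1a mutant or Myc was added to the Cxcl5-/- cells in retroviral vectors. The methods speak of biological replicates for experiments in general. Whether any line was a clone, and whether the sequenced samples of a group came from separate cultures, is not stated for these libraries, so p-values measure the spread between these samples only.

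Values are CPM, counts scaled to a common library size with edgeR's TMM method. The total count per library was 43875429 to 78498230 in the conditioned media table, 46973008 to 72361685 in the culture table and 41542533 to 64872036 in the rescue table. Cxcl5 transcript went against the label of 1 group. It was 65.5, 40.9 and 45.5 CPM in the 3D libraries labelled Cxcl5-/- and 24.5 to 28.5 CPM in 3D WT, whereas it was lower in Cxcl5-/- than in WT in 2D and in the rescue table, and transcript level need not follow an edit of the coding sequence. Hif1a and Myc, by contrast, separated these 3D libraries without overlap, at 140 to 176 against 336 to 407 CPM in 3D WT for Hif1a and 9.12 to 11.4 against 33.9 to 36.9 CPM for Myc. In the rescue table Myc was 397 to 549 CPM in MycOE Cxcl5-/- cells against 20.0 to 22.3 in Cxcl5-/- cells. Hif1a was 243 to 296 CPM in Hif1aOE Cxcl5-/- cells against 134 and 144 in Cxcl5-/- cells, but it was also 241 to 271 in MycOE Cxcl5-/- cells, so it did not separate the overexpressing lines. In WT cells of this table Hif1a was 304 and 324 CPM, above every Hif1aOE library, so its transcript was raised relative to Cxcl5-/- cells only. Among markers of cell identity, the summed level of 4 mesenchymal genes (2530 to 13000 CPM per library) was above that of 7 epithelial and ductal genes (217 to 1100 CPM) in every library. Endothelial genes summed to at most 3.5 CPM and acinar genes to at most 2.81 CPM.

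The cytosolic genes are the textbook targets of the transcription factor HSF1, which binds repeats of GAA and its reverse complement TTC (heat shock elements) when unfolded protein draws chaperones away. HSP70, with its J-domain and exchange partners, binds short stretches of unfolded protein, HSP90 finishes folding of kinases and receptors, and HSP60 with HSP10 encloses proteins imported into mitochondria. Cancer cells are known for high levels of these chaperones.

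Sequences before annotated start sites are shown because HSF1 acts there and the members differ in the letters they hold. RefSeq windows of GRCm38.p6, the build of the count tables, matched 7 of the 10 members. No window was matched for Hspa8, Hsp90aa1 and Hsp90ab1. In the 250 bases upstream, a run of 3 alternating units (GAANNTTCNNGAA or TTCNNGAANNTTC, which are reverse complements) was found for 2 of 7 members, Hspd1 and Hspe1, and for 0.514% of all 27025 genes, counting a gene once if any of its windows held it. The shorter pairs GAANNTTC and TTCNNGAA, each its own reverse complement and each contained in the run of 3, were found, one or the other, for 6 of 7 members and 14.5% of all genes. Dnajb1 was the member without one by this search. Only these exact letters were counted, so units that depart from them were not found. The stretch printed for Dnajb1 is 203 bases of its first window, not all 250 searched. Hsph1, Dnajb1 and Hspd1 had 2 windows each. For Hspd1 the units were before the second of its RefSeq starts, within the annotated gene, and the window of its first start held none. Capitals mark these letters, and each sequence runs 5′ to 3′ on the gene's strand.
Hspa1a, chr17:34972157-34972406, minus strand: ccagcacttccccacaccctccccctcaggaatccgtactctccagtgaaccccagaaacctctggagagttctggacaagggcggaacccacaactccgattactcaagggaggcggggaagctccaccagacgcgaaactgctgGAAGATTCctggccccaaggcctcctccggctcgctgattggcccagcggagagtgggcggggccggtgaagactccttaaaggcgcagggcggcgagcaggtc
Hspa1b, chr17:34959239-34959488, minus strand: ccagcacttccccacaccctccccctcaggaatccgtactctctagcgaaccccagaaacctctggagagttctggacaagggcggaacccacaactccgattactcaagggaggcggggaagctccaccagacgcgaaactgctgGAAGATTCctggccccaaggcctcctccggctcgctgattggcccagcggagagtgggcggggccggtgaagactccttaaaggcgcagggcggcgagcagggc
Dnajb1, chr8:83607972-83608174, plus strand: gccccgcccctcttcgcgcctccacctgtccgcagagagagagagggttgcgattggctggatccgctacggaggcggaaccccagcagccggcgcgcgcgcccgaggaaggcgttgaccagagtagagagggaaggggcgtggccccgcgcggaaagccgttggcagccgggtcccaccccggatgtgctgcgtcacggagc
Hspd1, chr1:55088053-55088082, minus strand: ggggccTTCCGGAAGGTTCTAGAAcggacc
Hspe1, chr1:55088053-55088082, plus strand: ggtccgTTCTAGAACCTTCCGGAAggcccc
Hsph1, chr5:149636351-149636380, minus strand: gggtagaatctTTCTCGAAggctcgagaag

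The windows of Hspa1a and Hspa1b were 98.8% identical, with the same pair of units at the same place. Their transcripts were 93.6% identical over 2735 aligned bases, and the longest match was 2201 bases at 99.2%, so the division of reads between them is uncertain and their sum is given for each table. Hspa1a held 16.5% to 24.8% of the summed counts in all 31 libraries. Hspd1 (chr1:55077835-55088243, minus strand) and Hspe1 (chr1:55088132-55091307, plus strand) lie head to head and overlap by 112 bases, and the stretch printed for them is the same DNA read from either strand. Gm20481 overlaps Hspa1a on the opposite strand by 2225 bases and held 0 counts in each table, and the small nucleolar RNA genes Snord14c, Snord14d and Snord14e lie within Hspa8. Whether counting used the strand of the reads is not stated, so reads in such overlaps cannot be assigned here. Processed pseudogenes and other near-identical genes (at least 300 aligned bases at 95% identity or more) held 14.1% to 15.8% of the counts of Hspa8 and its copies, 7.77% to 8.44% for Hsp90aa1 and under 5% for Hspd1 and Hspe1. CACGTG, the core letters bound by Myc and its partners, was found for 2 of 7 members, Hspd1 and Hsph1, in 1 of the 2 windows of each, and for 6.86% of all genes.

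Per kilobase of the longest coding transcript, the members kept much the same order of level in all groups. Hspa8 was first in every group, with group means of 576 to 1300 CPM per kilobase, and Hsp90ab1 was second with 301 to 623. Hsp90aa1 (102 to 329), Hspd1 (60.8 to 267) and Hspe1 (63.6 to 259) traded places 3 to 5. Hspa1b (7.48 to 41.5), Hsph1 (12.5 to 42.7) and Dnajb1 (14.2 to 29.5) traded places 6 to 8, and Hspa1a was ninth with 1.74 to 12.2. Hspb1, the small heat shock protein HSP25 of mice, was last. Its row held 0 to 19, 0 to 17 and 0 to 30 counts per library in the 3 tables, it passed the filter on low counts only in the rescue table, and no comparison of it was called.

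The conditioned media table asks whether macrophage products change the spheroids. The inducible HSP70 genes differed more between samples of a group than between media. Hspa1b was 73.1, 67.5 and 131 CPM in Ctrl, 105, 101 and 144 CPM with M0-CM, and 71.5, 68.4 and 132 CPM with M1-CM. Hspd1 was 239, 356 and 272 CPM in Ctrl, 261, 305 and 281 with M0-CM, and 286, 158 and 261 with M1-CM. All 3 groups overlapped for both genes. Hspa1a and Hspa1b summed to 85.3 to 170 CPM in Ctrl, 130 to 190 with M0-CM and 91.0 to 174 with M1-CM. None of the 9 members tested was called for M1-CM against Ctrl, where 0.0156% of 19207 genes were called, for M1-CM against M0-CM (0.0156%) or for M0-CM against Ctrl (0%). By edgeR's quasi-likelihood test, 0 of these 9 had an unadjusted p under 0.05 in any of the 3 comparisons, and DESeq2 called 0 as well. For M1-CM against Ctrl the 95% intervals of the log2 fold change ran from -0.72 to 0.71 for Hspa1b, from -0.81 to 0.22 for Hspd1 and, the widest of the 9, from -0.30 to 1.33 for Hsph1.

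**Figure D1:**
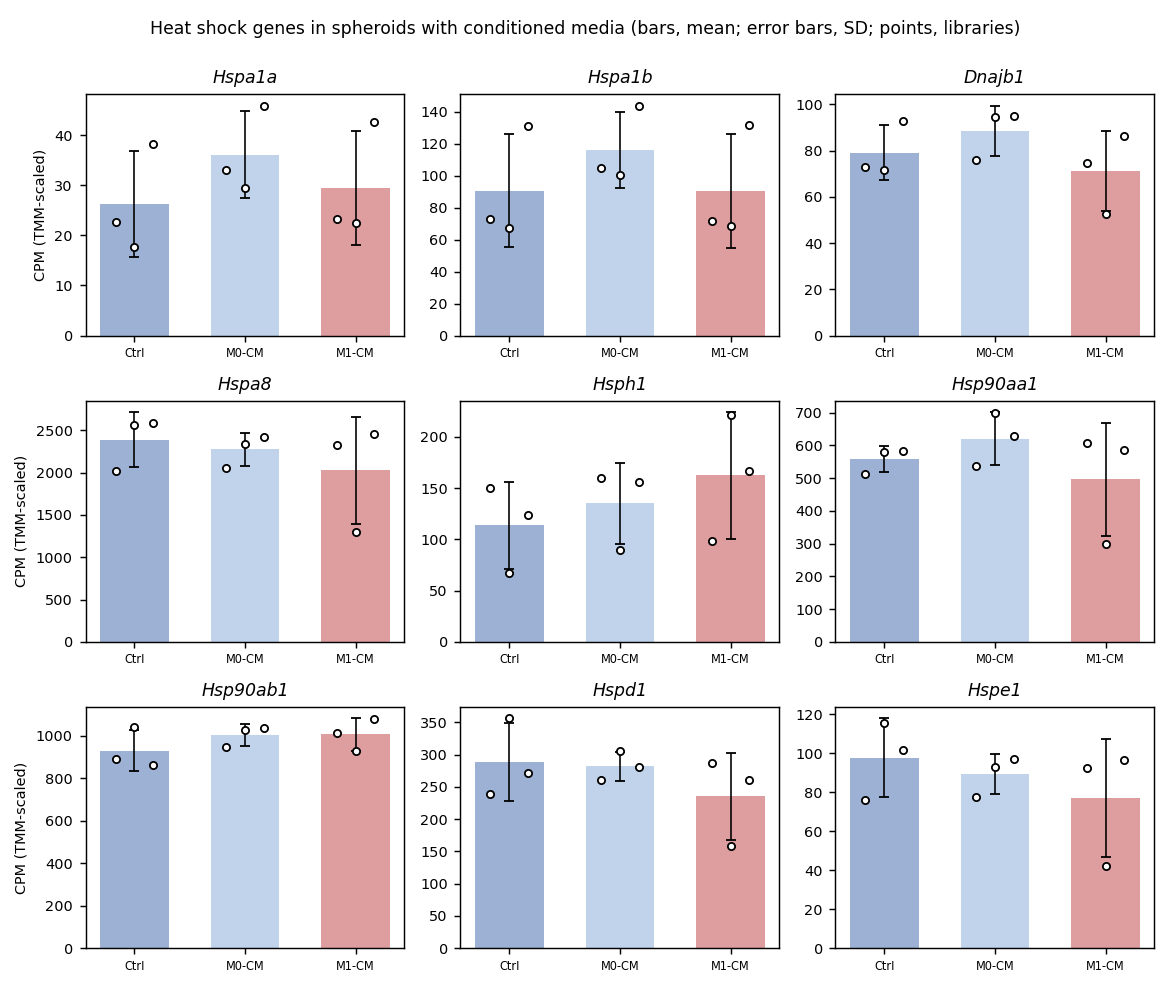
CPM of the 9 members that passed the filter on low counts, in Ctrl, M0-CM and M1-CM spheroids (bars, mean of 3 libraries; error bars, SD; points, libraries). The groups overlap for every gene shown, and 1 M1-CM library is low for Hspa8 (1301 CPM), Hsp90aa1, Hspd1 and Hspe1 and high for Hsph1.

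The second M1-CM library stood apart. It held 1301 CPM of Hspa8 against 2332 and 2457 in the others, 297 CPM of Hsp90aa1 against 606 and 585, 42.0 CPM of Hspe1 against 92.3 and 96.7, and 222 CPM of Hsph1 against 98.3 and 167. Without it the log2 fold change of M1-CM against Ctrl went from -0.24 ± 0.24 (SE) to -0.00 ± 0.16 for Hspa8 and from 0.52 ± 0.36 to 0.23 ± 0.37 for Hsph1, and no member was called.

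The culture table asks how cells differ between 2D and 3D and whether Cxcl5 matters for this. From 2D to 3D, the WT cells divided the members into those that rose, the inducible HSP70 genes and Dnajb1, and those that fell, the 5 members with the highest levels per kilobase and Hsph1. Hspa1a, Hspa1b and Dnajb1 were higher in 3D than in 2D WT cells, and Hspa8, Hsph1, Hsp90aa1, Hsp90ab1, Hspd1 and Hspe1 were lower, so that all 9 members tested were called where 44.3% of 21367 genes were (22.2% higher and 22% lower). In the 3D libraries labelled Cxcl5-/-, 6 of 9 were lower than in 2D Cxcl5-/- and 0 were higher (57% of genes called, 28.7% higher and 28.2% lower). Groups did not overlap for any call in these 2 comparisons, but the share of all genes without overlap was not computed. Fewer cells of a type and less RNA per cell cannot be told apart in such bulk samples.

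Hspa1b was 35.7, 23.2 and 36.9 CPM in 2D WT, 23.0, 18.2 and 21.7 in 2D Cxcl5-/-, 74.3, 43.3 and 68.8 in 3D WT, and 25.8, 17.2 and 23.2 in the 3D libraries labelled Cxcl5-/-. The 3D WT libraries were the only ones above 37 CPM, and the second of them was nearest to the rest. In WT cells Hspa1b was 1.95-fold higher in 3D than in 2D, a log2 fold change of 0.96 ± 0.21 (SE) with an adjusted p of 0.00231, while this step in Cxcl5-/- cells gave 0.07 ± 0.22 (adjusted p = 0.786, 95% interval -0.39 to 0.54). Hspa1a, at 5.57 to 10.97 CPM in 2D WT and 11.7 to 21.5 CPM in 3D WT, rose by 1.02 ± 0.25 (adjusted p = 0.00486). It was 5.26 to 5.61 CPM in 2D Cxcl5-/- and 4.96 to 7.65 CPM in the 3D libraries labelled Cxcl5-/-. Summed, the pair was 28.8 to 47.9 CPM in 2D WT, 23.5 to 28.6 in 2D Cxcl5-/-, 55.1 to 95.9 in 3D WT and 22.2 to 33.4 CPM in the 3D libraries labelled Cxcl5-/-.

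Dnajb1, whose J domain starts the ATPase cycle of HSP70, followed the inducible genes in WT cells but not in the others. It was 63.0, 57.0 and 59.8 CPM in 2D WT, 54.8, 57.8 and 59.2 in 2D Cxcl5-/-, 84.2, 68.4 and 71.1 in 3D WT and 47.0, 42.0 and 43.9 in the 3D libraries labelled Cxcl5-/-. No 3D WT library fell among the others, and the 3D libraries labelled Cxcl5-/- were below all of them. Dnajb1 rose from 2D to 3D in WT cells (log2 fold change 0.32 ± 0.09, adjusted p = 0.00835) and was lower in the 3D libraries labelled Cxcl5-/- than in 2D Cxcl5-/- (-0.37 ± 0.09, adjusted p = 0.00225).

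**Figure D2:**
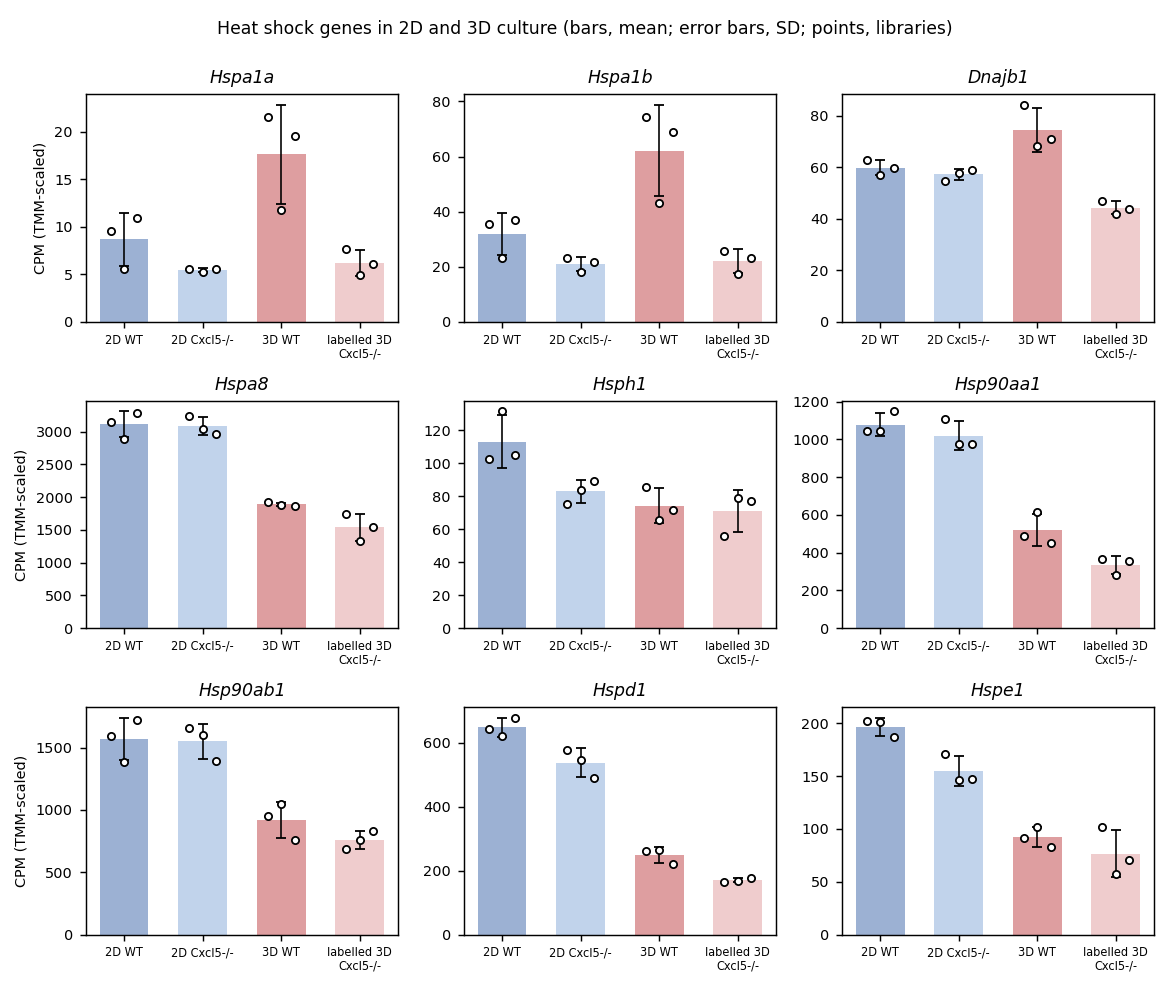
CPM of 9 members in 2D and 3D culture (bars, mean of 3 libraries; error bars, SD; points, libraries). Hspa1a, Hspa1b and Dnajb1 are highest in 3D WT, at 43.3 to 74.3 CPM for Hspa1b, while the other 6 genes are lower in both 3D groups than in their 2D counterparts, except that the Cxcl5-/- groups overlap for Hsph1.

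The mitochondrial chaperonin had the largest loss among the members. Hspd1 was 644, 621 and 679 CPM in 2D WT, 578, 546 and 489 in 2D Cxcl5-/-, 262, 265 and 221 in 3D WT and 165, 167 and 177 in the 3D libraries labelled Cxcl5-/-. The 4 groups did not overlap with each other. Hspd1 fell by 1.38 ± 0.09 on the log2 scale from 2D to 3D in WT cells (adjusted p = 6.58e-08) and was lower by a log2 fold change of -1.66 ± 0.09 in Cxcl5-/- cells (adjusted p = 7.79e-09). Hspe1, which shares its upstream DNA, was 187 to 202 CPM in 2D WT and 82.9 to 102 CPM in 3D WT (-1.09 ± 0.16, adjusted p = 8.73e-05), and 147 to 171 CPM in 2D Cxcl5-/- against 102, 57.5 and 70.9 CPM in the 3D libraries labelled Cxcl5-/- (-1.01 ± 0.16, adjusted p = 0.000121).

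Of the HSP90 pair, the stress-responsive Hsp90aa1 was 1043, 1044 and 1148 CPM in 2D WT, 1110, 977 and 974 in 2D Cxcl5-/-, 491, 617 and 453 in 3D WT and 366, 283 and 355 in the 3D libraries labelled Cxcl5-/-. Both 2D groups were above both 3D groups, and the 3D groups did not overlap. The log2 fold change from 2D to 3D was -1.05 ± 0.12 in WT (adjusted p = 1.18e-05) and -1.61 ± 0.13 in Cxcl5-/- cells (adjusted p = 1.65e-07). The constitutive Hsp90ab1 was 1386 to 1726 CPM in the 2D libraries and 687 to 1044 CPM in the 3D libraries, with log2 fold changes of -0.77 ± 0.12 (adjusted p = 0.000179) and -1.03 ± 0.13 (adjusted p = 1.01e-05).

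Hspa8, which folds proteins in unstressed cells, was 3151, 2893 and 3283 CPM in 2D WT, 3238, 3041 and 2970 in 2D Cxcl5-/-, 1919, 1883 and 1862 in 3D WT and 1747, 1325 and 1539 in the 3D libraries labelled Cxcl5-/-. It was lower in 3D in both genotypes, with log2 fold changes of -0.72 ± 0.09 in WT (adjusted p = 3.1e-05) and 95% interval -1.21 to -0.80 in Cxcl5-/- cells (adjusted p = 9.99e-07). Hsph1 was 103, 131 and 105 CPM in 2D WT and 85.9, 65.5 and 71.4 CPM in 3D WT, without overlap (-0.61 ± 0.14, adjusted p = 0.00349). In Cxcl5-/- cells it was 75.4 to 89.3 CPM in 2D and 56.1 to 79.0 CPM in 3D, with overlap (-0.23 ± 0.14, adjusted p = 0.193).

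Between genotypes, the members differed in 3D and not, by the threshold, in 2D. In 2D, 0 of 9 were called for Cxcl5-/- against WT by edgeR's quasi-likelihood test where 7.03% of genes were (3.86% higher and 3.17% lower). Of the 9, 4 had an unadjusted p under 0.05 (Hspa1a, Hspa1b, Hsph1 and Hspd1, all lower), and DESeq2 called 1, Hsph1. Without the second 2D WT library, Hspa1a (-0.89, adjusted p = 0.0423) and Hspa1b (-0.78, adjusted p = 0.0491) were called, and without the first 3D library labelled Cxcl5-/-, which enters only the estimate of the spread, Hsph1 was (adjusted p = 0.0424). In 3D, 6 of 9 were lower in the 3D libraries labelled Cxcl5-/- than in 3D WT and 0 were higher, where 45% of genes were called, 19.7% higher and 25.3% lower. Hspa1a was lower by a log2 fold change of -1.50 ± 0.26 (adjusted p = 0.000349), Hspa1b by -1.49 ± 0.22 (adjusted p = 9.02e-05) and Dnajb1 by -0.75 ± 0.09 (adjusted p = 1.09e-05). Hsp90aa1 (-0.64 ± 0.12, adjusted p = 0.000931), Hspd1 (-0.55 ± 0.09, adjusted p = 0.000256) and Hspa8 (-0.30 ± 0.09, adjusted p = 0.0204) were lower by less. Hsp90ab1, Hspe1 and Hsph1 were not called, with 95% intervals of -0.54 to -0.01 (adjusted p = 0.088), -0.61 to 0.08 and -0.38 to 0.24. Without the third 3D WT library Hsp90ab1 was called (-0.42, adjusted p = 0.0132), and without the first 3D library labelled Cxcl5-/- Hspe1 was (-0.55, adjusted p = 0.00151).

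The difference of the genotype effect between 3D and 2D was tested as an interaction, and 3 of 9 members were called, all with a more negative effect in 3D (27.2% of genes called, 16.1% in this direction and 11.1% in the other). These were Dnajb1 (-0.69 ± 0.12, adjusted p = 0.00108), Hsp90aa1 (-0.56 ± 0.17, adjusted p = 0.0306) and Hspa1b (-0.89 ± 0.30, adjusted p = 0.0445), while Hspa1a gave -0.83 ± 0.36 (adjusted p = 0.105). Hspa1b was near the threshold and lost the call without any of 7 single libraries (adjusted p = 0.0608 to 0.125). Hsp90aa1 lost it without any of 3, the first 2D WT, the first 2D Cxcl5-/- or the second 3D library labelled Cxcl5-/- (adjusted p = 0.051 to 0.11).

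These 3D contrasts depend on how libraries are scaled. TMM factors were 0.82 to 0.912 in 3D WT and 1.01 to 1.22 in the 3D libraries labelled Cxcl5-/-. With library totals in place of TMM, the median log2 fold change of all genes between them went from -0.04 to 0.35 and the members called lower from 6 to 3 (Hspa1a, Hspa1b and Dnajb1), Hspa8 turned to 0.08, and the interaction gave 1 member, Hsph1 (0.77, adjusted p = 0.0368), in the other direction. The balance of all genes turned as well, the share of higher genes among those called going from 43.9% to 75.8% between the 3D groups and from 40.9% to 77.1% for the interaction. For 3D WT against 2D WT the median of all genes went from 0.00 to -0.21 and Dnajb1 lost its call (0.10, adjusted p = 0.404), whereas the other 8 calls held. The share of higher genes among those called went from 50.2% to 34.7% in that comparison. Hspa8 in 3D kept its call in 13 of 20 alternatives. It also lost it without a filter (adjusted p = 0.195), with a minimum of 10 counts in every sample (0.0942), with only the groups compared (0.0864), without the second 3D library labelled Cxcl5-/- (-0.16, adjusted p = 0.209) or without the first or the third 2D Cxcl5-/- library (adjusted p = 0.0693 and 0.0587).

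Ratios of counts within a library do not depend on scaling. Counts of Hspa1a and Hspa1b together per 1000 counts of Hspa8 were 13.0 ± 2.62 (SD, n = 3) in 2D WT, 8.57 ± 0.766 in 2D Cxcl5-/-, 42.2 ± 11.3 in 3D WT and 18.3 ± 1.34 in the 3D libraries labelled Cxcl5-/-, and the lowest 3D WT library (29.2) was above the highest of all others (19.1). Hsp90aa1 counts per Hsp90ab1 count went from 0.691 ± 0.0543 in 2D WT to 0.568 ± 0.0439 in 3D WT and from 0.660 ± 0.0458 in 2D Cxcl5-/- to 0.445 ± 0.0812 in 3D, without overlap between 2D and 3D of a genotype. Dnajb1 counts per 1000 Hspa8 counts were 18.2 to 20.0 in 2D WT and 36.3 to 43.9 in 3D WT. They were 26.9 to 31.7 in the 3D libraries labelled Cxcl5-/-, between these 2 ranges. In the rescue table the Dnajb1 ratio had the other order, 30.8 in Cxcl5-/- and 26.6 in WT on average, and the ratio for Hspa1a and Hspa1b was 24.7 in WT, 20.3 in Cxcl5-/-, 18.0 to 25.6 with Hif1a and 14.1 to 15.9 with Myc. These ratios are given as descriptions, without a test.

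**Figure D3:**
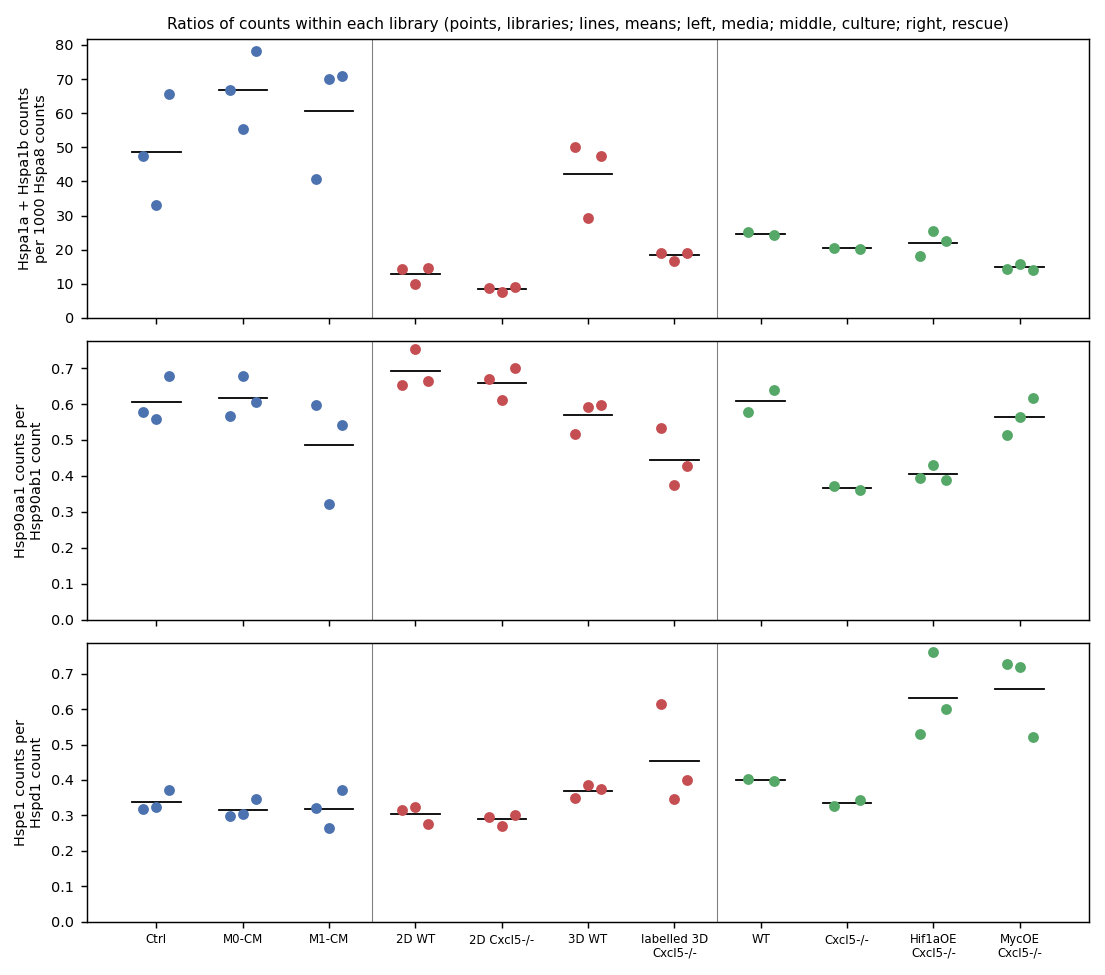
Ratios of counts within each library, which no scaling changes (points, libraries; lines, means; left, conditioned media; middle, 2D and 3D culture; right, rescue). Hspa1a and Hspa1b reach 29.2 or more counts per 1000 Hspa8 counts in 3D WT against at most 19.1 in the other culture groups, and Hspe1 reaches 0.521 to 0.762 counts per Hspd1 count in both overexpressing lines against at most 0.403 in the other rescue groups.

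Immediate early genes respond within minutes to serum, stress or handling. Their sum, like the level of the inducible genes, was highest in 3D WT among the culture groups. The summed level of 10 of them was 134 to 154 CPM in 2D WT, 109 to 119 in 2D Cxcl5-/-, 599 to 746 in 3D WT and 136 to 158 in the 3D libraries labelled Cxcl5-/-, with none of the 10 at 0. Of the 10, 9 were called higher in 3D than in 2D WT cells (22.2% of all genes), and in the 3D libraries labelled Cxcl5-/- 9 were lower (25.3% of all genes) and 1 was higher than in 3D WT. Against 2D Cxcl5-/-, 4 were higher and 0 lower in these 3D libraries (28.7% and 28.2% of all genes). Hspa1a and Hspa1b were not called in that comparison. Epithelial and ductal markers summed to 853 to 1100 CPM in 3D WT and 217 to 236 CPM in the 3D libraries labelled Cxcl5-/-, and fibroblast markers to 71.4 to 74.1 and 204 to 234 CPM. The fibroblast sum was carried by Pdgfra (20.1 to 23.6 CPM in 3D WT and 194 to 225 CPM in the 3D libraries labelled Cxcl5-/-), while Dcn and Lum were called lower there and the median of the 4 genes tested was -0.94. In 2D, epithelial and ductal markers summed to 546 to 593 CPM in WT and 450 to 484 in Cxcl5-/-. Fibroblast markers summed there to 23.3 to 25.3 and 9.31 to 11 CPM. Mesenchymal markers summed to 3870 to 4020 CPM in 2D WT and 6450 to 7280 in 3D WT. They summed to 2530 to 2810 in 2D Cxcl5-/- and 6420 to 9340 in the 3D libraries labelled Cxcl5-/-. From 2D to 3D, 3 of these 4 rose and 1 fell in WT (22.2% and 22% of all genes). In Cxcl5-/- cells 1 rose and 2 fell (28.7% and 28.2%). The part of all these genes in the heat shock results was not tested.

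Over the 12 culture libraries the members fell into the same sets. Hspa8, Hsp90aa1, Hsp90ab1 and Hspe1 had a Pearson r of 0.943 to 0.983 with Hspd1 on log2 CPM, Hsph1 0.719 and Dnajb1 0.295, while Hspa1a and Hspa1b had -0.186 and -0.134. The summed inducible pair had r = 0.817 with Dnajb1. The 5 genes of the whole table most like the summed pair were Vasn (r = 0.985), Bag2 (0.981), Spg21, Xbp1 and Adipor1 (0.966), and those most like Hspd1 were Lyar (0.997), Hars, Psmd12, Fkbp4 and Dna2 (0.995). Bag2 is a cofactor of HSP70 and Fkbp4 one of HSP90. These are descriptions over 4 groups of 3 libraries that share the culture and genotype differences.

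The rescue table asks what added Hif1a or Myc restores in Cxcl5-/- spheroids. The members were lower in Cxcl5-/- than in WT spheroids for 7 of 10 and higher for 0 (41.9% of 28730 genes called, 17.6% higher and 24.3% lower). With Hif1a, 8 of 10 were higher than in Cxcl5-/- spheroids and 0 lower (35.5% called, 20.5% higher and 15% lower), and with Myc 5 were higher and 1 lower (39.6% called, 21.6% higher and 18% lower). For Myc against Cxcl5-/- the share of higher genes among all called went from 54.6% to 36.3% with library totals, which gave 4 members higher and 1 lower and took the members' median from 0.32 to -0.02. For Hif1a against Cxcl5-/- the share went from 57.8% to 43.6%, with 5 members higher and 0 lower. The comparisons with Cxcl5-/- spheroids share the same 2 libraries, and those with WT spheroids another 2. The median log2 fold change of all genes was -0.30 for Cxcl5-/- against WT and 0.16 and 0.11 for Hif1a and Myc against Cxcl5-/-.

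**Figure D4:**
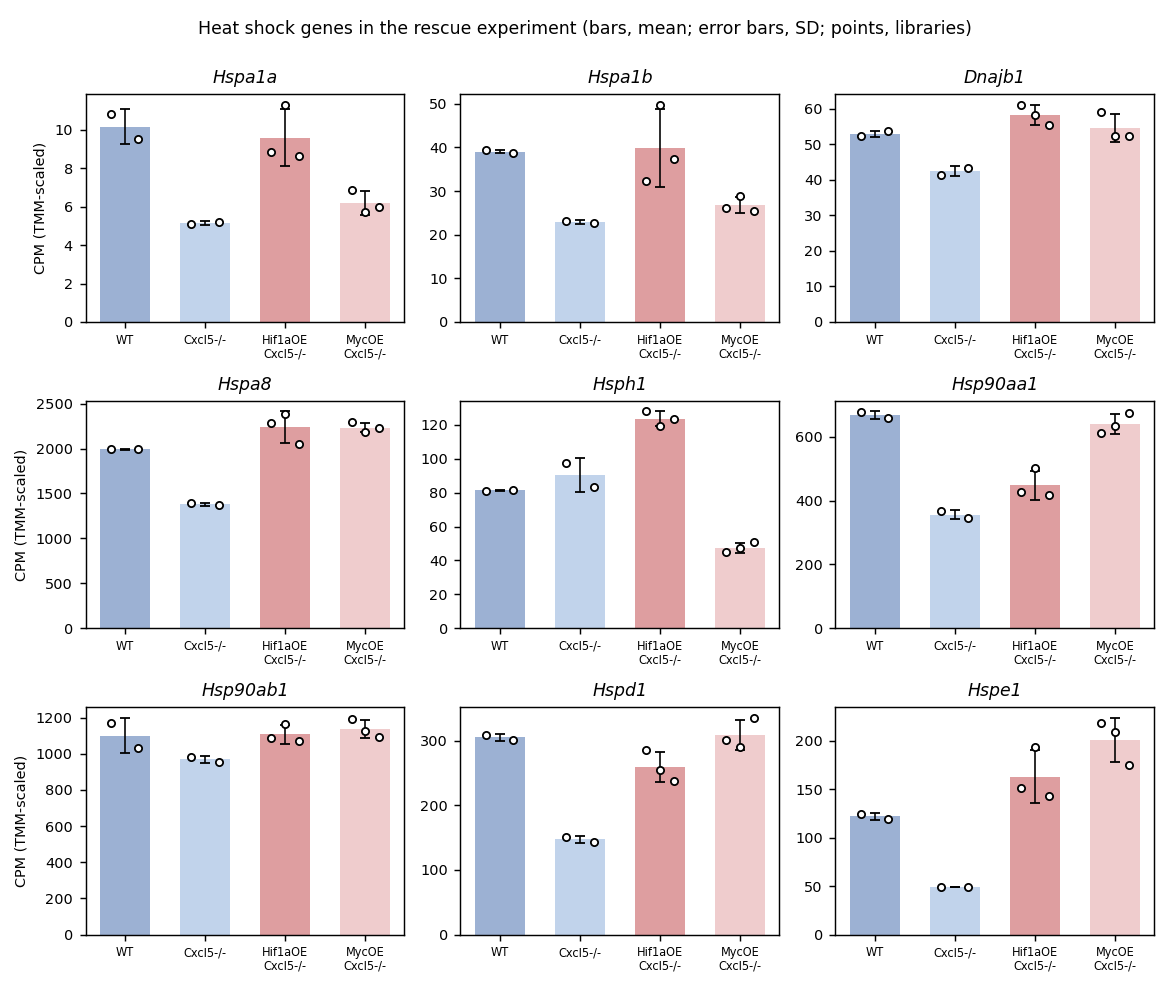
CPM of 9 members in 3D-cultured WT, Cxcl5-/-, Hif1aOE Cxcl5-/- and MycOE Cxcl5-/- cells (bars, mean of 2, 2, 3 and 3 libraries; error bars, SD; points, libraries). Hspe1 is 49.2 CPM in both Cxcl5-/- libraries and 143 to 219 CPM in the overexpressing lines, whereas Hspa1a, Hspa1b and Hsph1 are higher with Hif1a than with Myc.

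Hspe1 had the largest log2 fold change of the members for Cxcl5-/- against WT among those called and for either overexpressing line against Cxcl5-/-. It was 124 and 119 CPM in WT, 49.2 and 49.2 in Cxcl5-/-, 151, 194 and 143 in Hif1aOE Cxcl5-/- and 219, 209 and 175 in MycOE Cxcl5-/- cells. Every library of the overexpressing lines was above WT, and WT was above Cxcl5-/-. Hspe1 was lower in Cxcl5-/- than in WT by a log2 fold change of -1.31 ± 0.15 (adjusted p = 4.14e-05), and higher than in Cxcl5-/- with Hif1a (1.73 ± 0.14, adjusted p = 4.32e-06) and with Myc (2.03 ± 0.14, adjusted p = 1.15e-06).

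Hspd1 was 308 and 301 CPM in WT, 151 and 143 in Cxcl5-/-, 285, 255 and 238 with Hif1a and 301, 290 and 336 with Myc. The Cxcl5-/- libraries were below all others and the MycOE libraries lay around WT. Its log2 fold change was -1.05 ± 0.11 for Cxcl5-/- against WT (adjusted p = 1.96e-05), 0.82 ± 0.10 with Hif1a (adjusted p = 6.54e-05) and 1.07 ± 0.10 with Myc (adjusted p = 7.71e-06). Hspe1 counts per Hspd1 count, a ratio within each library, were 0.403 and 0.396 in WT, 0.326 and 0.343 in Cxcl5-/-, 0.529 to 0.762 with Hif1a and 0.521 to 0.727 with Myc, so the pair did not move in step in the overexpressing lines. In the culture table, without added Hif1a or Myc, the ratio was 0.345 to 0.616 in the 3D libraries labelled Cxcl5-/-, highest in the first.

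The inducible HSP70 genes separated the 2 overexpressing lines. Hspa1b was 39.3 and 38.8 CPM in WT, 23.2 and 22.6 in Cxcl5-/-, 32.2, 49.7 and 37.4 with Hif1a and 26.1, 29.0 and 25.5 with Myc. The Hif1aOE libraries lay around WT and the MycOE libraries between Cxcl5-/- and WT. Hspa1b was lower in Cxcl5-/- than in WT (-0.77 ± 0.16, adjusted p = 0.00352), higher with Hif1a than in Cxcl5-/- (0.80 ± 0.15, adjusted p = 0.00167) and, with Myc, not called (0.23 ± 0.15, 95% interval -0.10 to 0.56). Hspa1a was 10.8 and 9.54 CPM in WT, 5.08 and 5.22 in Cxcl5-/-, 8.65 to 11.3 with Hif1a and 5.72 to 6.90 with Myc. Their sum was 50.1 and 48.3 CPM in WT, 28.3 and 27.8 in Cxcl5-/-, 41.1 to 61.0 with Hif1a and 31.5 to 34.7 with Myc. The direct comparison of Myc with Hif1a gave -0.57 ± 0.13 for Hspa1b (adjusted p = 0.0116) and -0.63 ± 0.14 for Hspa1a (adjusted p = 0.00985).

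Hsph1 moved in opposite directions. It was 81.1 and 81.6 CPM in WT, 97.5 and 83.4 in Cxcl5-/-, 128, 120 and 124 with Hif1a and 44.9, 47.3 and 50.6 with Myc. The Hif1aOE libraries were above and the MycOE libraries below all libraries of WT and Cxcl5-/- cells. The log2 fold change against Cxcl5-/- was 0.45 ± 0.09 with Hif1a (adjusted p = 0.0019) and -0.93 ± 0.09 with Myc (adjusted p = 7.98e-06), and between the lines it was -1.38 ± 0.08 for Myc against Hif1a (adjusted p = 6.89e-07). With library totals the Hif1a difference from Cxcl5-/- lost its call (0.23, adjusted p = 0.167) and the Myc difference kept it.

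Hsp90aa1 was higher with Myc than with Hif1a. It was 676 and 660 CPM in WT, 366 and 345 in Cxcl5-/-, 426, 501 and 418 with Hif1a and 612, 633 and 675 with Myc. The MycOE libraries overlapped WT, and the Hif1aOE libraries lay between Cxcl5-/- and WT. It was lower in Cxcl5-/- than in WT (-0.91 ± 0.11, adjusted p = 5.62e-05), higher with Myc than in Cxcl5-/- (0.85 ± 0.10, adjusted p = 3.93e-05) and higher with Myc than with Hif1a (0.51 ± 0.09, adjusted p = 0.00153). The difference of Hif1a from Cxcl5-/- was 0.33 ± 0.10 (adjusted p = 0.0198). It lost its call with library totals (0.10, adjusted p = 0.429) and without either Cxcl5-/- library (adjusted p = 0.068 and 0.161). Hsp90aa1 counts per Hsp90ab1 count were 0.577 and 0.640 in WT, 0.373 and 0.361 in Cxcl5-/-, 0.390 to 0.429 with Hif1a and 0.513 to 0.617 with Myc.

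Hspa8 was 1990 and 1993 CPM in WT, 1391 and 1368 in Cxcl5-/-, 2289, 2383 and 2046 with Hif1a and 2291, 2182 and 2229 with Myc. The libraries of both overexpressing lines lay above WT, by differences that were not called, and Cxcl5-/- was below it (-0.53 ± 0.10, adjusted p = 0.00191). The log2 fold changes against Cxcl5-/- were 0.70 ± 0.10 with Hif1a (adjusted p = 0.000161) and 0.70 ± 0.10 with Myc (adjusted p = 0.000133), and between the lines the 95% interval was -0.19 to 0.18. Hsp90ab1 spanned 955 to 1192 CPM over all 10 libraries and was not called for Cxcl5-/- against WT (-0.18 ± 0.10, adjusted p = 0.155), with Hif1a (0.19 ± 0.09, adjusted p = 0.13) or with Myc (0.23 ± 0.09, adjusted p = 0.0691), but it was called in 4 of 18 alternatives in the first (DESeq2, -0.28, adjusted p = 0.00121, size factors, the minimum of 10 counts and only the groups compared) and in 5 of 18 in the last (adjusted p = 0.0119 to 0.0476).

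Dnajb1 was 52.3 and 53.6 CPM in WT, 41.4 and 43.5 in Cxcl5-/-, 55.4 to 61.0 with Hif1a and 52.2 to 59.2 with Myc. The Cxcl5-/- libraries were below the other 8. Its log2 fold changes were -0.32 ± 0.09 for Cxcl5-/- against WT (adjusted p = 0.0186), 0.46 ± 0.09 with Hif1a (adjusted p = 0.00144) and 0.36 ± 0.09 with Myc (adjusted p = 0.00536). The first of these lost its call without any single WT or Cxcl5-/- library (adjusted p = 0.0753 to 0.137), which leaves 1 library assumed to vary like the other groups. The third lost it without the first Cxcl5-/- library (adjusted p = 0.0632), and both overexpression calls were lost with library totals (0.23, adjusted p = 0.072, and 0.02, adjusted p = 0.883).

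Set against WT spheroids, results depended on scaling. By TMM, 2 of 10 members were higher and 1 lower with Hif1a (24.2% of genes called, 13.9% higher and 10.3% lower), and 1 was higher and 3 lower with Myc (31.8%, 17.1% higher and 14.7% lower). For Hif1a the balance turned with DESeq2, its size factors, library totals or a minimum of 10 counts in every sample, each of which gave 1 member higher and 2 lower, Hspe1 losing its call and Hspd1 gaining one (-0.41 to -0.38, adjusted p = 0.000318 to 0.0331). The share of higher genes among all called went from 57.5% to 40.5% with size factors and 38.1% with library totals. For Myc it went from 53.7% to 42.2% and 28.5%, and library totals gave 4 members lower. Hsph1 was 0.61 ± 0.09 above WT with Hif1a on the log2 scale (adjusted p = 0.000793), and its difference was -0.77 ± 0.09 with Myc (adjusted p = 7.19e-05). Hsp90aa1 remained below WT with Hif1a (-0.57 ± 0.10, adjusted p = 0.00162). With Myc, Hspa1a (-0.71 ± 0.16, adjusted p = 0.00609) and Hspa1b (-0.54 ± 0.15, adjusted p = 0.0186) were below WT, but without the first WT library neither was called (adjusted p = 0.0785 and 0.0828), and Hspa1b was not called without the second either (adjusted p = 0.0749) or without the first or the third MycOE library (adjusted p = 0.0501 and 0.0531). Hspe1 was above WT with Myc (0.72 ± 0.13, adjusted p = 0.0021), and its difference with Hif1a (0.42 ± 0.13, adjusted p = 0.0433) kept its call in 5 of 18 alternatives. It was lost without any of 7 of the 10 libraries (adjusted p = 0.0518 to 0.184), and also without a filter (0.0667) and with only the groups compared (0.0702). Between the overexpressing lines, 4 of 10 members were called (19.3% of genes, 9.54% higher and 9.73% lower), Hsp90aa1 higher and Hspa1a, Hspa1b and Hsph1 lower with Myc. With library totals these 4 kept their calls, and the share of higher genes among all called went from 49.5% to 36.1%.

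**Figure D5:**
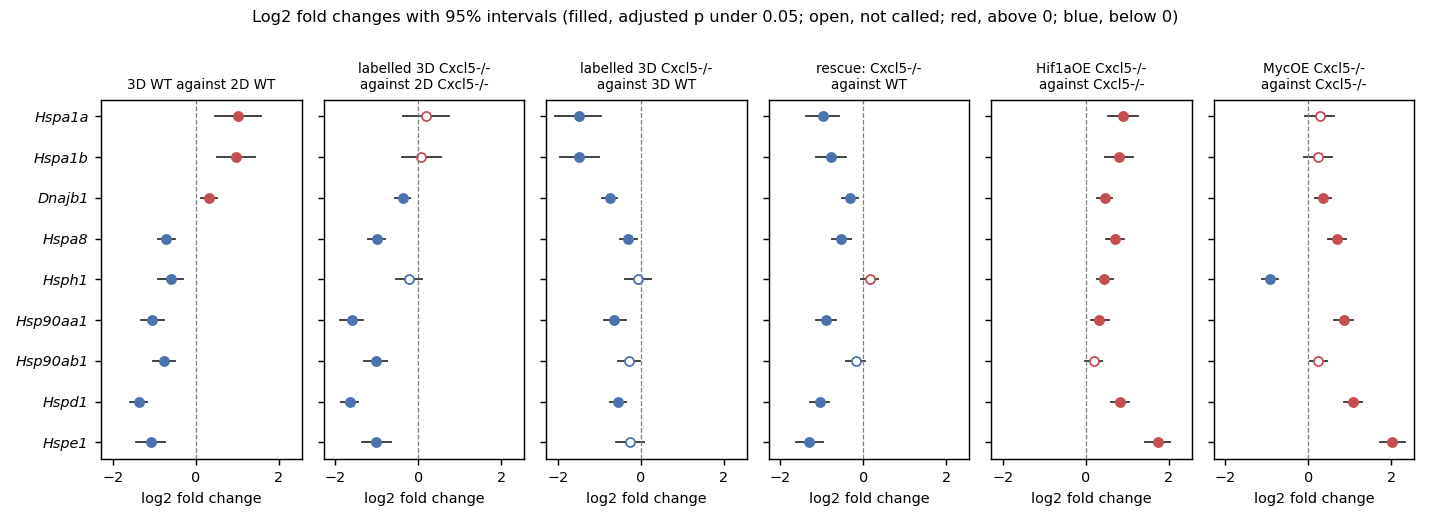
Log2 fold change (x axis) of 9 members in 6 comparisons with 95% intervals (filled points, adjusted p under 0.05; open points, not called; red, above 0; blue, below 0). In WT cells 3 genes are to the right and 6 to the left from 2D to 3D, and Hspe1 has the largest value with Hif1a (1.73) and with Myc (2.03).

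Cxcl5-/- against WT in 3D was measured in both tables, which were normalized separately, so the values stand side by side without a test. In the culture and the rescue table the log2 fold changes were -1.50 and -0.98 for Hspa1a, -1.49 and -0.77 for Hspa1b, -0.75 and -0.32 for Dnajb1, -0.30 and -0.53 for Hspa8, -0.64 and -0.91 for Hsp90aa1, -0.55 and -1.05 for Hspd1, and -0.26 and -1.31 for Hspe1. Hsp90ab1 had -0.28 and -0.18, called in neither, and Hsph1 -0.07 and 0.15. Hsph1 was thus the member without the same sign in both among these 9, but with library totals Hspa8 (0.08), Hspe1 (0.09) and Hsp90ab1 (0.11) were above 0 in the culture table. Over the alternatives Hsph1 itself ran from -0.18 to 0.34 in the culture table and from 0.03 to 0.26 in the rescue table. Its sign in the culture table therefore depended on the setting. Immediate early genes summed to 558 to 560 CPM in WT, 241 to 277 in Cxcl5-/-, 278 to 350 with Hif1a and 304 to 385 with Myc in the rescue table, and fibroblast markers to 20.3 to 23.7, 269 to 270, 26.0 to 44.7 and 147 to 170 CPM. Epithelial and ductal markers summed to 856 to 903 CPM in WT, 287 to 302 in Cxcl5-/-, 705 to 837 with Hif1a and 267 to 312 with Myc, and mesenchymal markers to 7830 to 7960, 12900 to 13000, 5170 to 6800 and 3030 to 3450 CPM. The immediate early genes moved both ways, with 3 called higher and 4 lower of 10 in Cxcl5-/- than in WT (17.6% and 24.3% of all genes, list median -0.02), 3 higher and 3 lower with Hif1a (20.5% and 15%) and 5 higher and 3 lower with Myc than in Cxcl5-/- (21.6% and 18%). Of 5 fibroblast markers tested, 4 were higher in Cxcl5-/- than in WT (17.6% of all genes). Macrophage markers summed to 43.2 to 43.3 CPM in WT, 34.5 to 34.7 in Cxcl5-/-, 44.9 to 63.2 with Hif1a and 59.7 to 76.7 with Myc. Endothelial markers summed to 2.4 to 3.5 CPM in WT and 0.325 to 0.332 in Cxcl5-/-, where 3 of 4 were lower (24.3% of all genes). The part of all these genes in the rescue results was not tested.

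Other genes of the chaperone system were followed by lists. Their counts are given by TMM only, and the balance of all genes turned with library totals in several of these comparisons, as given above. Of the HSF genes and their regulators, 0 of 5 tested were called in 3D WT against 2D WT (44.3% of all genes), and 2 were lower and 1 higher in the 3D libraries labelled Cxcl5-/- than in 2D Cxcl5-/- (28.2% and 28.7% of all genes). Hsf1, the stress-activated factor, was among the lower (-0.28 ± 0.10, adjusted p = 0.0258), and its interaction was not called (-0.18 ± 0.14, adjusted p = 0.386). The interaction was called for 2 of 5 against 27.2% of all genes, 1 in each direction, Hsf2 (-0.62 ± 0.15, adjusted p = 0.00736) and the scarce Hsf5. HSP90 co-chaperones, which load clients and drive the ATPase of HSP90, were lower from 2D to 3D for 15 of 17 in WT and 16 of 17 in Cxcl5-/- cells (22% and 28.2% of all genes), with 0 higher, among them Ahsa1, the ATPase activator (-1.28 ± 0.11 and -1.38 ± 0.11), and Fkbp4 (-1.12 ± 0.10 and -1.43 ± 0.10). The median log2 fold change of the list was -0.50 and -1.06, against 0.00 and 0.11 for all genes tested.

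The cytosolic chaperonin TRiC and its partner prefoldin, which fold actin and tubulin, were lower for 11 of 14 in 3D WT against 2D WT and for 11 of 14 in the 3D libraries labelled Cxcl5-/- against 3D WT (22% and 25.3% of all genes), with 0 higher in either. In the rescue spheroids, 13 of 14 were lower in Cxcl5-/- than in WT, 13 of 14 were higher with Hif1a and 14 of 14 with Myc than in Cxcl5-/- (24.3%, 20.5% and 21.6% of all genes). The list medians were -0.86, 0.90 and 0.95 there. Tcp1, a TRiC subunit, was lower in Cxcl5-/- than in WT (-1.28 ± 0.10, adjusted p = 2.66e-06) and higher with Myc (1.27 ± 0.09, adjusted p = 1.52e-06).

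The mitochondrial import chaperones and proteases, which work beside HSP60, were higher for 12 of 16 with Hif1a and 13 of 16 with Myc than in Cxcl5-/-, with 1 lower in each (20.5% and 21.6% of all genes higher). Between Cxcl5-/- and WT 8 were lower and 1 higher (24.3% and 17.6% of all genes), and their median of -0.30 equalled that of all genes. Hspa9, the HSP70 of mitochondria, was lower in Cxcl5-/- than in WT (-1.53 ± 0.09, adjusted p = 5.33e-07) and higher with Hif1a (0.38 ± 0.08, adjusted p = 0.00435) and with Myc (0.99 ± 0.09, adjusted p = 4.26e-06). From 2D to 3D in WT cells 8 of 16 fell and 2 rose (22% and 22.2% of all genes, list median -0.32). The protease gene Lonp1 was higher in 3D than in 2D WT cells (1.30 ± 0.10, adjusted p = 3.16e-07), in the other direction from Hspd1 and Hspe1.

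Among J-domain proteins, 9 of 16 fell and 2 rose from 2D to 3D in WT cells (22% and 22.2% of all genes), including Dnaja1 (-1.18 ± 0.09) and Dnajb4 (0.71 ± 0.09). Of the exchange factors and adaptors of HSP70, Bag2 was lower in Cxcl5-/- than in WT spheroids of the rescue table (-1.82 ± 0.11, adjusted p = 5.1e-07) and higher with Hif1a (1.23 ± 0.10) and Myc (1.52 ± 0.10), while Bag3 went the other way (0.78 ± 0.10, then -0.64 ± 0.09 and -1.07 ± 0.09). Of the other HSP70 and HSP110 genes, 3 of 8 rose and 4 fell from 2D to 3D in WT cells (22.2% and 22% of all genes, list median -0.25). Hspa4l, an HSP110 relative, was among those that rose (0.99 ± 0.10, adjusted p = 2.06e-06) and was lower in the 3D libraries labelled Cxcl5-/- than in 3D WT (-1.77 ± 0.10, adjusted p = 1.7e-08). Going from 2D to 3D in WT cells, 4 of the 6 small heat shock genes tested rose and 0 fell (22.2% of all genes rose), and Cryab, an HSPB1 relative, was 25.7 to 33.5 CPM in 2D WT and 112 to 138 CPM in 3D WT (2.12 ± 0.13, adjusted p = 2.97e-08). In the conditioned media none of these lists had a gene called.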

How the data were processed

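RNA sequencing of 31 samples was analysed from 3 tables of gene counts that the authors deposited without normalization. The authors made stranded total RNA libraries, sequenced read pairs, aligned them to GRCm38 (mm10 in the submitters' processing notes) with HISAT2 and counted with StringTie. Versions, annotation release and strand setting are not given in the sources used here. Labels of the rescue samples number the cell line from sample to sample, and the paper's Panc02 was followed. All columns were used.

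Genes were tested with edgeR 4.0.16 (quasi-likelihood test, TMM, its filter by group, all groups of a table, Benjamini-Hochberg over genes tested) at an adjusted p under 0.05. SE is the log2 fold change over the square root of F. Intervals are 95%. The script was tested on simulated data with 100 genes changed 2-fold and 100 changed 4-fold. It recovered 17% and 64% of these for M1-CM against Ctrl and 51% and 76% for 3D WT against 2D WT. For rescue Cxcl5-/- against WT it recovered 30% and 45%. False calls were 1.22%, 3.79% and 5.06% of those called. A member that was not called may therefore still differ. Named genes were all members, up to 3 genes a direction from each list and the 5 nearest by correlation. Members and lists were chosen with earlier results of these data known.

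Alternatives were DESeq2 1.42.0, size factors, library totals, other filters, only the groups compared, a replicate block, each sample left out, a fold limit, and Hspa1a with Hspa1b summed. Summing near-identical copies (blastn 2.17.0) was added after seeing the data. Upstream sequences are from RefSeq, gene positions from GENCODE.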

Additional observations from a re-analysis of the deposited data

Results flagged for a closer look

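The interaction test of edgeR over the 12 culture libraries called 3 of 9 members tested, where 27.2% of genes were called (11.1% higher and 16.1% lower). By this test the difference between Cxcl5-/- and WT cells was not the same in 2D and in 3D for these 3. The share of members called (33.3%) was not far above that of all genes. The log2 interaction was -0.69 ± 0.12 (SE, adjusted p = 0.00108) for Dnajb1, -0.89 ± 0.30 (adjusted p = 0.0445) for Hspa1b and -0.56 ± 0.17 (adjusted p = 0.0306) for Hsp90aa1. In 2D the genotype difference was -0.07 for Dnajb1, -0.61 for Hspa1b and -0.08 for Hsp90aa1, and in 3D it was -0.75, -1.49 and -0.64. Over the 19 alternatives the interaction ran from -0.79 to -0.32 for Dnajb1 (adjusted p = 3.72e-06 to 0.0752), from -1.13 to -0.53 for Hspa1b (0.000567 to 0.166) and from -0.69 to -0.20 for Hsp90aa1 (0.00938 to 0.443), the values nearest to 0 being those with library totals. The call was kept in 18 of the 19 for Dnajb1, 10 for Hspa1b and 14 for Hsp90aa1. With library totals none of these 3 was called, and Hsph1 was called in the other direction. The share of higher genes among all called went from 40.9% to 77.1%. Cxcl5 transcript in the 3D libraries labelled Cxcl5-/- went against their label, whereas Hif1a (140 to 176 CPM against 336 to 407 in 3D WT) and Myc (9.12 to 11.4 against 33.9 to 36.9) separated the same libraries without overlap.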

How the results depend on the processing

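Over 139 recalculated counts of members called with other settings, 123 stayed within 1.5 times the value given. The exceptions were as follows. For Cxcl5-/- against WT in 2D (0 called), DESeq2 gave 1, only the groups compared gave 3 and the replicate block gave 1. With library totals the counts were 3 for the 3D libraries labelled Cxcl5-/- against 3D WT (6 before), 1 for the interaction (3 before) and 5 for Hif1aOE Cxcl5-/- against Cxcl5-/- (8 before), and without a filter the interaction gave 1. Requiring an absolute log2 fold change above 1 left 4 for 3D WT against 2D WT, 2 for the 3D libraries labelled Cxcl5-/- against 3D WT, 0 for the interaction, 2 for rescue Cxcl5-/- against WT, 1 for Hif1a and 2 for Myc against Cxcl5-/-, 1 between these lines, and 0 for either against WT. Leaving out a sample gave 0 to 2 members for Cxcl5-/- against WT in 2D, 1 to 5 for the interaction and 2 to 4 for MycOE Cxcl5-/- against WT. Of 2422 recalculated fold changes of single members, 2325 kept their side of the threshold and no called direction turned except Hspa8 with library totals in the 3D libraries labelled Cxcl5-/- against 3D WT (0.08, adjusted p = 0.404). Between samples with the same replicate number the mean correlation of deviations was 0.0369, 0.0247 and 0.00408 in the conditioned media, culture and rescue tables. Single pairs reached 0.359 (Ctrl and M0-CM replicate 1) in the conditioned media table and 0.18 in the culture table. Pairs with different numbers reached 0.288 and 0.142 there. These values do not settle whether the numbers pair samples. The replicate block added Hspa1b in 2D (adjusted p = 0.00277), Hspa1a in the interaction (0.0205), Hsp90ab1 for Myc against Cxcl5-/- (0.0334) and Hspe1 for Myc against Hif1a (0.0323). The row of Hspb1 itself was too shallow (30 counts at most) for any statement, and the 2 WT and 2 Cxcl5-/- rescue libraries limit every comparison there.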

Other observations

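Hspb1 has 2 near-identical genes, the pseudogene Hsp25-ps1 and Gm9817, which held 62.5% of the counts of the 3 together in the rescue table. The sum is shallow, with 116 counts of Hspb1 and 193 of the other genes over all 10 rescue libraries. Summing was tried after seeing the data. By edgeR the sum was called lower in Hif1aOE Cxcl5-/- (log2 fold change -3.27, adjusted p = 0.00717) and in MycOE Cxcl5-/- (-2.51, adjusted p = 0.0222) than in Cxcl5-/- spheroids. Most of its counts are not from Hspb1. The row of Hspb1 alone was not called in either (adjusted p = 0.338 and 0.316). In the culture table the row of Hspb1 did not pass the filter on low counts. It held 71 counts and the other genes 104 over all 12 libraries. There the same summing raised the members called between the 3D libraries labelled Cxcl5-/- and 2D Cxcl5-/- from 6 to 7, the added call being this sum, higher in 3D.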
